A study of Mus musculus with 6 samples.

Results

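The 10 genes described here are often grouped as tolerance-associated in dendritic cells, the antigen-presenting cells of the immune system: Ido1, Il4i1, Arg1, Arg2, Nos2, Cd200, Cd200r1, Lgals1, Entpd1 and Nt5e. They were taken by symbol from the annotation of an Affymetrix 3′ microarray, each by its brightest probe set with a single symbol, and 10 of 10 were found among 12393 measured genes. Total RNA came from conventional dendritic cells gated on CD11c in a cell sorter, and the mice were of the inbred BALB/c strain. The labels give spleen as the source of 3 arrays and lymph node as that of 3 others. No treatment or genetic change is named for either group, and the labels give neither the age of the mice nor whether arrays came from separate animals or pools. All p-values here thus rest on the spread among 3 arrays a group, and that spread may be technical.

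Dendritic cells can restrain T cells by using up amino acids, by surface ligands and by making adenosine. Ido1 opens the kynurenine pathway by cleaving tryptophan, Il4i1 oxidises aromatic amino acids, the arginases Arg1 and Arg2 and the inducible nitric oxide synthase Nos2 consume arginine, and Entpd1 (CD39) and Nt5e (CD73) act in turn to convert extracellular ATP into adenosine. Cd200 is a membrane glycoprotein that signals through the inhibitory receptor Cd200r1 on myeloid cells, and Lgals1 encodes galectin-1, a secreted lectin that binds sugars on T cells. All of these are also expressed by other cells.

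The groups, called spleen-labelled and node-labelled arrays after the sample titles, were set against their labels first. Itgax, the gene of CD11c, lay at 9.74 to 10.17 (log2 intensity) in the spleen-labelled arrays and at 10.85 to 10.97 in the node-labelled arrays. It was called lower in the spleen-labelled arrays, with a difference of -0.97 (limma, adjusted p = 0.0310). Of 11 measured conventional dendritic cell genes, Itgax and Ciita were called lower and Ccr7 higher, with a median difference of -0.57. The mean level of this list per array was 9.78 to 10.26 in the spleen-labelled and 10.50 to 10.52 in the node-labelled arrays. The dendritic cell genes Flt3 and Zbtb46 were at 7.13 or above in all 6 arrays. Ccl22, a chemokine of mature migratory dendritic cells, which reach lymph nodes from tissues, averaged 9.34 ± 0.07 in the spleen-labelled arrays and 4.37 ± 0.28 in the node-labelled arrays (SD, n = 3 each). Fscn1, another gene of that state, passed in the same direction, in 3 of its 4 probe sets (the fourth, 1416516_at, had a difference of -0.24 with groups that overlapped). Ccr7 passed narrowly, with a difference of 1.47 (limma, adjusted p = 0.0496). Cd83, Relb and Marcks, of the same list of 14 measured genes, had differences of -0.46, -0.40 and -0.07 with groups that overlapped. Marco, a macrophage gene of the splenic marginal zone, was higher in the spleen-labelled arrays, by 4.27-fold (adjusted p = 0.0310). It was the only gene called among 14 measured macrophage markers, whose median difference was -0.44. Of 8 measured genes of Langerhans cells or skin dendritic cells, 4 were called, all higher in the spleen-labelled arrays. These were Cdh1, Cldn1, Aldh1a2 and Clec10a. Cd207 and Mgl2 had differences of 0.67 and 1.26 with groups that overlapped. Epcam differed by -0.41 with overlap and Cd209a by -0.75 without overlap, and neither passed. The called mature genes thus go against the organ labels, and Marco, the 1 called macrophage marker, goes with them. Whether the labels are right was not tested. The labels are kept in the group names, and every difference is the spleen-labelled minus the node-labelled level. Array medians were 39.4 to 41.3 intensity units, and Pearson correlations of log2 intensity across genes were 0.968 to 0.979 among the spleen-labelled arrays and 0.982 to 0.992 among the node-labelled arrays, against 0.952 to 0.972 between the groups. Having 3 arrays a group limited the precision throughout.

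Ido1 (probe set 1420437_at) was the member with the largest difference. Its log2 intensity was 6.35, 5.76 and 5.67 in the spleen-labelled arrays, against 2.87, 3.00 and 3.17 in the node-labelled arrays. On the deposited linear scale these were 81.4, 54.3 and 51.0 units in the spleen-labelled arrays, against 7.3, 8.0 and 9.0 units in the node-labelled arrays. The groups did not overlap, and the lowest spleen-labelled array was far above the highest node-labelled array. The difference was 2.91 ± 0.22 (SE) on the log2 scale, 7.54-fold (limma, adjusted p = 0.00350), the smallest p but 3 of all genes. The level in the node-labelled arrays was close to that of the trpn control probe sets, 1.63 to 2.77, which lie at the bottom of the scale, so the size of the fold is uncertain while its direction held in every alternative that could be computed for Ido1. With 16 units added before the logarithm, the difference was 1.68.

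Cd200 (1448788_at) lay at 7.22, 6.77 and 6.96 in the spleen-labelled arrays and at 4.29, 4.10 and 4.99 in the node-labelled arrays. Every spleen-labelled array was higher than every node-labelled array. The difference was 2.52 ± 0.26 (SE), 5.75-fold (adjusted p = 0.00582).

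The promoter of Cd200 is shown because it was the only member past the threshold with an entry in the RefSeq promoter table used here (build GRCm38.p6); Ido1 and Lgals1 were not matched. The 250 bases before the annotated start, on the minus strand at chr16:45409054-45409303, read 5′ to 3′ as follows, with the capitals marking a GC box.
Cd200: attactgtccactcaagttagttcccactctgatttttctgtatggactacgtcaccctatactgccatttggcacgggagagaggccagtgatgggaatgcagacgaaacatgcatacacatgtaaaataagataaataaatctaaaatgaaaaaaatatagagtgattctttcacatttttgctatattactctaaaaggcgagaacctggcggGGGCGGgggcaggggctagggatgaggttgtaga
The GC box, GGGCGG on either strand, was chosen after the windows had been read and occurs in 32.7% of 32851 windows of the same length. Matches to the gamma-activated site TTCNNNGAA, the interferon-stimulated response element core (GAAA, any 2 bases, GAAA) and the NF-kB core (GGGA, any 2 bases, TTCC), all searched on both strands, were not found in the Cd200 window, nor in the windows of Il4i1, Nt5e and Entpd1. Of the 13 windows searched, which include those of 4 called genes from the lists around the members, that of Socs3 held a match to the gamma-activated site. These motifs occur in 7.02%, 2.98% and 1.21% of all windows. Absence of these letters from a short window says nothing of the factors that bind them.

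Lgals1 was measured by a pair of probe sets. The brighter one (1455439_a_at) read 10.70, 10.31 and 10.95 in the spleen-labelled arrays and 9.21, 9.25 and 9.53 in the node-labelled arrays. The groups did not overlap, and the difference was 1.32 ± 0.21 (SE), 2.50-fold (adjusted p = 0.0212). The other probe set (1419573_a_at) gave 1.53 ± 0.21 (SE), likewise without overlap. The call on Lgals1 was lost without spleen array 1 (adjusted p = 0.0735), lymph node array 1 (0.113) or lymph node array 2 (0.109), while its difference stayed between 1.17 and 1.49.

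**Figure D1:**
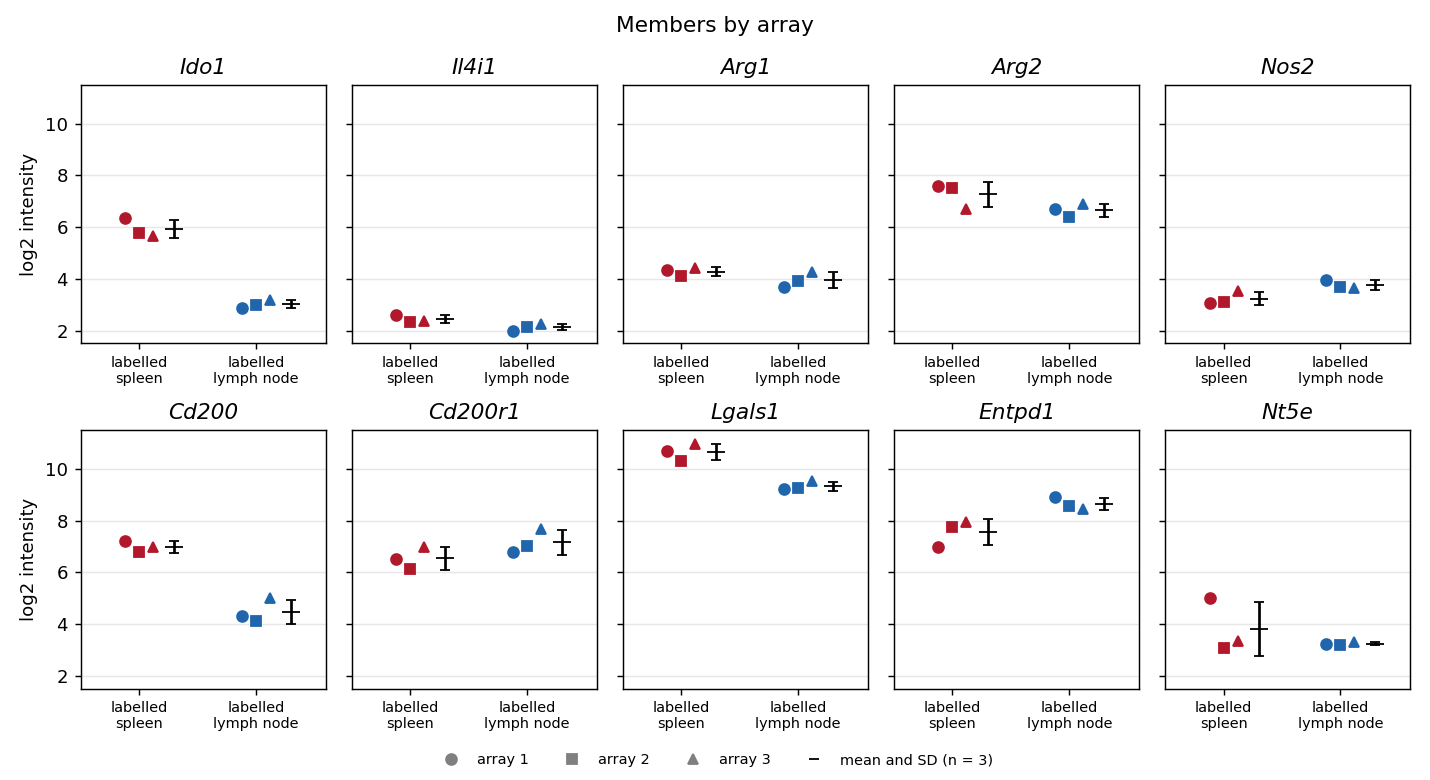
Log2 intensity (vertical axis) of the 10 members in each array, with spleen-labelled arrays in red on the left of each panel and node-labelled arrays in blue on the right; symbols mark the array number, and the black bar gives the mean and SD (n = 3). Ido1, Il4i1, Cd200 and Lgals1 have all red points above all blue points, Entpd1 and Nos2 have all red points below, and 1 spleen-labelled array stands alone for Nt5e at 5.0. All points of Il4i1 and Nos2 lie near the bottom of the scale.

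In total 3 of the 10 members passed an adjusted p of 0.05, where 3.4% of all genes did. All 3 were higher in the spleen-labelled arrays, as were 2.03% of all genes, and 0 members were lower, as were 1.37% of all genes. Unadjusted, 5 members had a p under 0.05, as had 19% of all genes. The groups did not overlap for 6 members, 4 higher and 2 lower, where 24.5% of all genes had groups without overlap. Among the 6, Il4i1, at 2.00 to 2.61, lay in the range of the trpn controls. Nos2, at 3.05 to 3.96, was also near the bottom of the scale. The median difference was 0.44 over the members and -0.0053 over all genes. The members were chosen with earlier results of these data known, so these comparisons with all genes are a description only.

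Several marker lists of other cell states and types had called genes. Of 14 measured genes of mature or migratory dendritic cells 8 were higher and 0 lower in the spleen-labelled arrays, with mean levels per array of 8.32 to 8.90, against 7.03 to 7.55 in the node-labelled arrays. Of 8 genes of Langerhans cells or skin dendritic cells 4 were higher and 0 lower (6.27 to 6.97 in the spleen-labelled and 4.74 to 5.29 in the node-labelled arrays). Of 13 plasmacytoid dendritic cell markers 3 were higher and 0 lower (6.92 to 8.50 in the spleen-labelled and 5.68 to 6.50 in the node-labelled arrays). The called ones, Ccr9, Klk1 and Blnk, were all highest in array 3 of each group. Bst2, Tcf4, Lair1 and Cd209d had positive differences with groups that overlapped. Irf7 and Tlr7 had differences of -0.11 and -0.23, also with overlap. Ly6d, Cox6a2, Spib and Pacsin1 were higher without overlap and did not pass. Endothelial and stromal markers belong to other cells able to express Cd200, Lgals1 and Nt5e. Their mean levels per array were low and close (3.89 to 4.26 in the spleen-labelled and 3.83 to 3.99 in the node-labelled arrays). Single genes differed, with Cdh5 higher and Pecam1 lower of 11. Cdh5 averaged 5.48 in the spleen-labelled and 3.31 in the node-labelled arrays, 4.48-fold. Pecam1, at 5.76 to 7.18, and Kdr, at 5.73 to 6.38, lay above the median of all genes, 5.46, in every array. T cell markers overlapped (5.08 to 6.28 in the spleen-labelled and 3.97 to 5.31 in the node-labelled arrays, with Cd28 higher and 0 lower of 11), as did NK cell markers (5.14 to 6.74 in the spleen-labelled and 4.45 to 5.74 in the node-labelled arrays, with 0 of 10 called). Among B cell markers, of cells that carry Cd200, Entpd1 and Nt5e, Cd22 and Cr2 were lower, while Cd79b, Ms4a1 and Ebf1 had differences of 0.61, 0.29 and 0.26 and did not pass (4.93 to 5.07 in the spleen-labelled and 5.37 to 5.73 in the node-labelled arrays, with 0 higher and 2 lower of 11). Of 6 plasma cell markers Sdc1 alone was called, 15.2-fold higher (adjusted p = 0.0351), with its node-labelled arrays at 2.00 to 3.88, near the bottom of the scale. Of 14 macrophage markers Marco alone was called. Lymph node array 3 stood apart in this list, with a mean level of 6.02 and, for the iron exporter Slc40a1, 7.39 against 3.34 to 3.66 in the other 5 arrays. Of 10 neutrophil or monocyte markers Camp was lower, and S100a9 had a difference of -3.44 without overlap (adjusted p = 0.0536). Ccr2, of the same list, went the other way, with a difference of 2.10 without overlap (limma, adjusted p = 0.0681). Of 6 red blood cell or platelet markers 0 were called. No marker is listed at 0, since the lowest deposited intensity was 2.1. In bulk RNA a change in the number of cells of a type and a change in RNA per cell cannot be told apart, and the part of these markers in the member results was not tested.

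Control probe sets differed in the same arrays. The 24 probe sets of the bacterial poly-A spike averaged 8.83 in the spleen-labelled arrays and 7.72 in the node-labelled arrays, a difference of 1.11 without overlap. The 3′ minus 5′ signal of Gapdh, which reads RNA or amplification quality, was 3.14 to 3.44 in the spleen-labelled arrays and 2.60 to 2.79 in the node-labelled arrays, again without overlap. For both, the exact two-sided permutation p was 0.1, the smallest that 3 against 3 arrays can give. The same measure for beta-actin was -0.33 to -0.18 in the spleen-labelled arrays and -0.35 to -0.17 in the node-labelled arrays (exact permutation p = 0.8), and the 18 hybridisation spike probe sets averaged 12.43 in the spleen-labelled and 12.53 in the node-labelled arrays (p = 0.3, exact permutation). The spike level and the Gapdh measure split the arrays just as the labels do and cannot be told apart from them.

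Cd200r1 (1422191_at), the receptor of Cd200, did not pass the test. It read 6.53, 6.11 and 6.96 in the spleen-labelled arrays and 6.77, 7.02 and 7.68 in the node-labelled arrays. Its highest value was in lymph node array 3, the array that stood apart in macrophage markers. The groups overlapped, and the difference was -0.62 ± 0.30 (SE, adjusted p = 0.317), with a 95% interval of -1.31 to 0.07. Without that array the difference was -0.36. Of the other measured genes of the Cd200 list, Dok1, an adaptor used by the receptor, differed by -0.27 ± 0.18 (SE). Rasa1, a Ras GTPase-activating protein, differed by -0.17 ± 0.17 (SE), and Dok2 by 0.11 ± 0.33 (SE). Of 5 measured genes in that list 1, Cd200, was higher and 0 were lower, with a median difference of -0.17. In the RefSeq gene table of assembly GRCm38.p6 Cd200 and Cd200r1 lie on 1 chromosome with 7 protein-coding genes between them.

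Entpd1 (1450939_at) had the largest difference towards the node-labelled arrays. It read 6.99, 7.73 and 7.93 in the spleen-labelled arrays, against 8.91, 8.56 and 8.44 in the node-labelled arrays. The groups did not overlap, but the difference of -1.09 ± 0.27 (SE), 2.12-fold, missed the threshold (adjusted p = 0.0733; 95% interval -1.71 to -0.46). Its second probe set (1423326_at) also had groups without overlap, with 4.78 to 5.24 in the spleen-labelled arrays, 5.61 to 6.22 in the node-labelled arrays and a difference of -0.75 ± 0.23 (SE). Entpd1 passed when arrays were weighted (adjusted p = 0.0332) or genes under the median level were left out (0.0488).

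Nt5e (1422974_at), which acts after Entpd1, read 5.0, 3.07 and 3.34 in the spleen-labelled arrays and 3.23, 3.19 and 3.31 in the node-labelled arrays. A single spleen-labelled array stood apart, and the other 5 arrays lay within 3.07 to 3.34. That array, spleen array 1, also had the highest mean levels of T cell (6.28), NK cell (6.74) and plasma cell (5.93) markers of all 6 arrays. Its level of Gzmb, a granzyme of cytotoxic cells, was 6.67, against 2.81 to 3.31 in the other 5. The part of these cells in the Nt5e value was not tested. The difference was 0.56 ± 0.46 (SE, adjusted p = 0.581), and without spleen array 1 it was -0.039. Of 16 measured genes of extracellular ATP and adenosine, 2 were higher and 0 lower, with a median of -0.02. These were Adk, the kinase that turns adenosine into AMP, at 6.49 ± 0.29 in spleen-labelled and 4.88 ± 0.16 in node-labelled arrays (SD, n = 3 each; 3.07-fold, adjusted p = 0.00910), and P2ry14, a receptor for UDP-sugars, at 7.18 ± 0.53 in spleen-labelled and 4.76 ± 0.60 in node-labelled arrays (SD, n = 3 each; 5.33-fold, adjusted p = 0.0190). All 4 probe sets of Adk had a positive difference, 0.23 to 1.62. Without lymph node array 1 the calls on Adk (adjusted p = 0.0620) and P2ry14 (0.0678) were lost, and that on P2ry14 also without lymph node array 2 (0.0572).

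**Figure D2:**
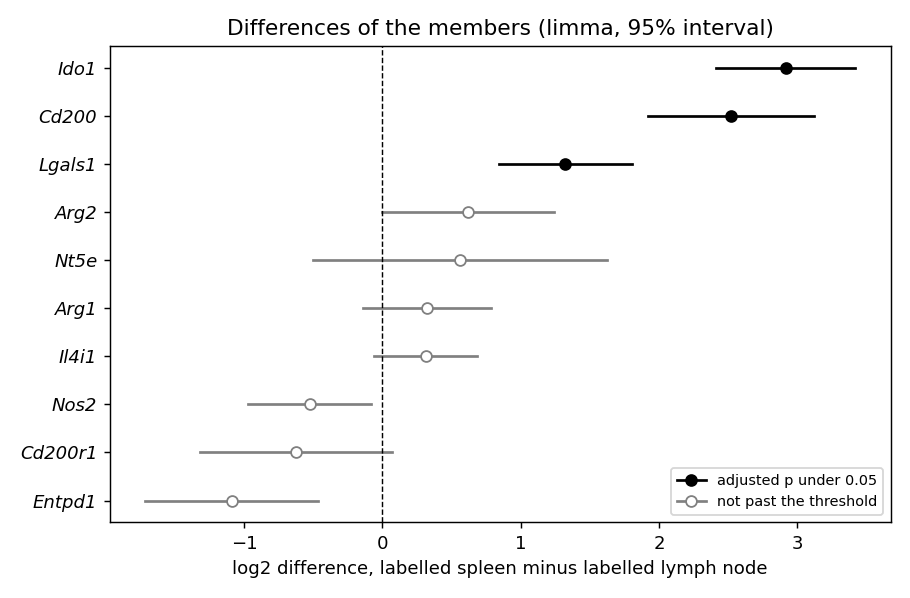
Log2 difference of each member, spleen-labelled arrays minus node-labelled arrays (horizontal axis), with the 95% interval from limma; filled points passed an adjusted p of 0.05 over all genes. Ido1 at 2.91, Cd200 at 2.52 and Lgals1 at 1.32 stand to the right, and the intervals of Entpd1 and Nos2 lie left of 0 although neither passed.

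The enzymes of arginine use did not pass. Arg1 (1419549_at) read 4.33, 4.10 and 4.41 in the spleen-labelled arrays and 3.68, 3.93 and 4.27 in the node-labelled arrays, with a difference of 0.32 ± 0.20 (SE, adjusted p = 0.446). Nos2 (1420393_at) read 3.05, 3.12 and 3.52 in the spleen-labelled arrays and 3.96, 3.67 and 3.64 in the node-labelled arrays, with a difference of -0.53 ± 0.19 (SE, adjusted p = 0.188). The Nos2 groups did not overlap and the Arg1 groups did. Nos2 lay under 4 in all arrays, near the bottom of the scale, and Arg1 lay little above, at 3.68 to 4.41.

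Arg2 (1418847_at), the mitochondrial arginase, was well above that range. It read 7.58, 7.52 and 6.71 in the spleen-labelled arrays and 6.69, 6.39 and 6.88 in the node-labelled arrays. Spleen array 3 lay within the range of the node-labelled arrays, in its first probe set and, at 5.44 against 5.70 to 5.87 in the node-labelled arrays, below all of them in its second (1438841_s_at). The difference was 0.62 ± 0.27 (SE, adjusted p = 0.264, 95% interval -0.0011 to 1.24), and it was 0.90 without spleen array 3 (adjusted p = 0.0575). Of 15 measured genes of arginine, nitric oxide and polyamine metabolism 0 were higher and 1 lower, with a median of 0.06. The lower one was Sat1, which acetylates polyamines for breakdown or export, at 10.78 ± 0.17 in spleen-labelled and 11.80 ± 0.11 in node-labelled arrays (SD, n = 3 each; 2.04-fold, adjusted p = 0.0226). Its call was lost without spleen array 1 (adjusted p = 0.0621) and without lymph node array 1 (0.125), 2 (0.106) or 3 (0.0527). Odc1, the ornithine decarboxylase that starts polyamine synthesis, had a difference of 0.84 ± 0.20 (SE), short of the threshold (adjusted p = 0.0668), with groups that did not overlap. It passed in 7 of 16 alternatives at that threshold, with adjusted p from 0.0253 to 0.244.

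Il4i1 (1437612_at) read 2.61, 2.32 and 2.38 in the spleen-labelled arrays and 2.00, 2.14 and 2.23 in the node-labelled arrays. These values are in the range of the trpn controls, so the difference of 0.31 ± 0.16 (SE, adjusted p = 0.353) carries no information on a level of Il4i1. A second probe set (1419192_at) is annotated to both Il4i1 and Il4i1b and was given to neither. It was bright, at 8.91, 9.48 and 9.53 in the spleen-labelled arrays and 8.05, 8.17 and 9.19 in the node-labelled arrays, and its groups overlapped through lymph node array 3.

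**Figure D3:**
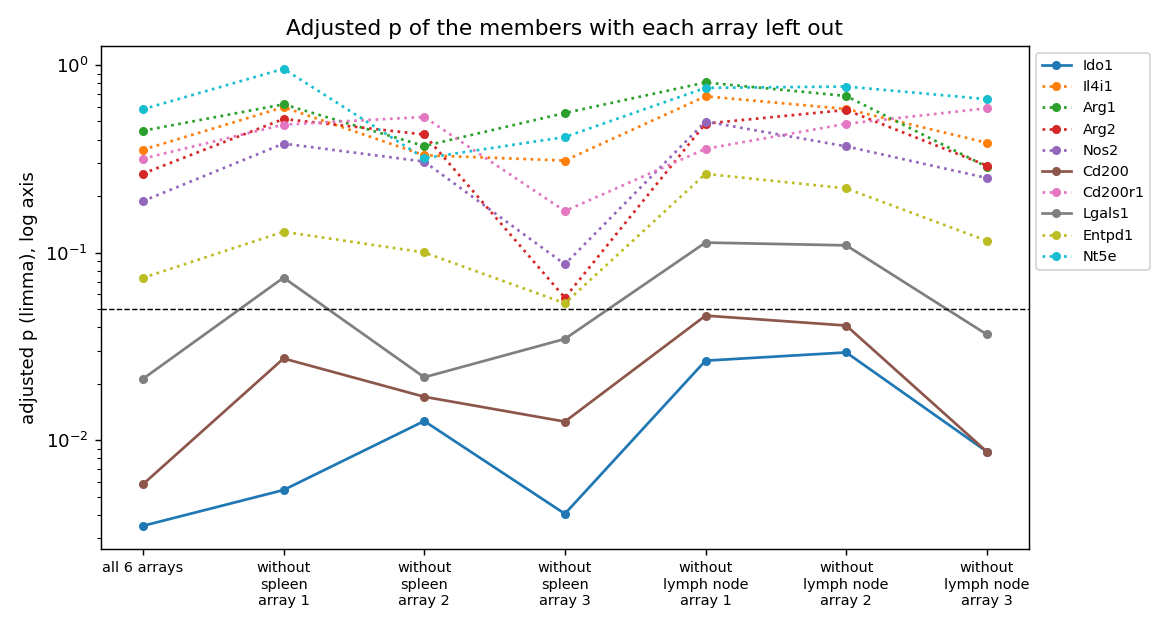
Adjusted p from limma (vertical axis, log scale) of each member with all 6 arrays and with each array left out in turn; solid lines are members that passed with all arrays and the dashed line is the threshold of 0.05. Ido1 and Cd200 stay under the line throughout, Lgals1 crosses it in 3 of the fits, and the other 7 members stay above it.

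The kynurenine pathway around Ido1 was examined as a list of 17 measured genes, of which 2 were higher and 0 lower, with a median difference of 0.19. Beside Ido1 this was Ido2, its paralogue, which lies next to Ido1 in the RefSeq gene table of GRCm38.p6 with 0 protein-coding genes between them. Ido2 (1425778_at) read 5.86, 4.61 and 4.69 in the spleen-labelled arrays and 2.98, 2.91 and 3.19 in the node-labelled arrays. Its groups did not overlap, and the difference was 2.03 ± 0.33 (SE), 4.08-fold (adjusted p = 0.0234), with a lower group again near the bottom of the scale. The call on Ido2 was lost without lymph node array 1 or 2 (adjusted p = 0.111 for either) and with 16 units added (0.0838).

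The enzymes that take the pathway on from kynurenine had no member past the threshold. Kmo, the kynurenine monooxygenase, averaged 9.70 ± 0.63 in spleen-labelled and 9.32 ± 0.27 in node-labelled arrays (SD, n = 3 each). Kynu, the kynureninase, averaged 9.61 ± 0.34 in spleen-labelled and 9.82 ± 0.44 in node-labelled arrays (SD, n = 3 each). Both were bright in all 6 arrays. Slc7a5, a subunit of the transporter that carries tryptophan and kynurenine, had a difference of 0.57 ± 0.18 (SE), with adjusted p = 0.127.

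Of 17 measured genes that induce Ido1 or signal with it, 1 was higher and 0 lower, with a median of -0.09. The higher one was Socs3, known in mouse dendritic cells as a protein that directs Ido1 to degradation, at 6.68 ± 0.33 in spleen-labelled and 4.19 ± 0.36 in node-labelled arrays (SD, n = 3 each; 5.64-fold, adjusted p = 0.00550) by its brightest probe set. Its 3 probe sets disagreed in sign, 2 against 1. The third, 1416576_at, had a difference of -0.52 ± 0.17 (SE), with groups that did not overlap and all its values under 4.11. The 2 probe sets with a positive difference both have the suffix _x_at, and the third does not. Irf8, a transcription factor of interferon responses and of dendritic cell subsets, differed by 1.67 without overlap and did not pass (adjusted p = 0.156). Ptpn6, the phosphatase SHP-1 that binds phosphorylated Ido1, differed by -0.98 ± 0.25 (SE, limma, adjusted p = 0.0802), also without overlap. The interferon-gamma receptor chains Ifngr1 and Ifngr2 had differences of -0.89 and -0.43 without overlap and did not pass either. Map3k14 and Cd80 differed by -0.90 and -0.73, and Jak2 and Irf1 by 0.25 and 0.27. These too had groups without overlap and did not pass.

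Galectins other than Lgals1 had no gene past the threshold in 9 measured. Lgals3 and Lgals9, the best known of them in myeloid cells, differed by 0.15 and -0.41. Lgalsl, a galectin-like gene, had the smallest p of the 9, with a difference of 1.07 ± 0.38 (SE, adjusted p = 0.185), followed by Lgals8 with -0.42 ± 0.16 (SE, adjusted p = 0.197). The median over the 10 measured galectin genes was -0.0031. No test of the difference between Lgals1 and the other galectins was made.

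**Figure D4:**
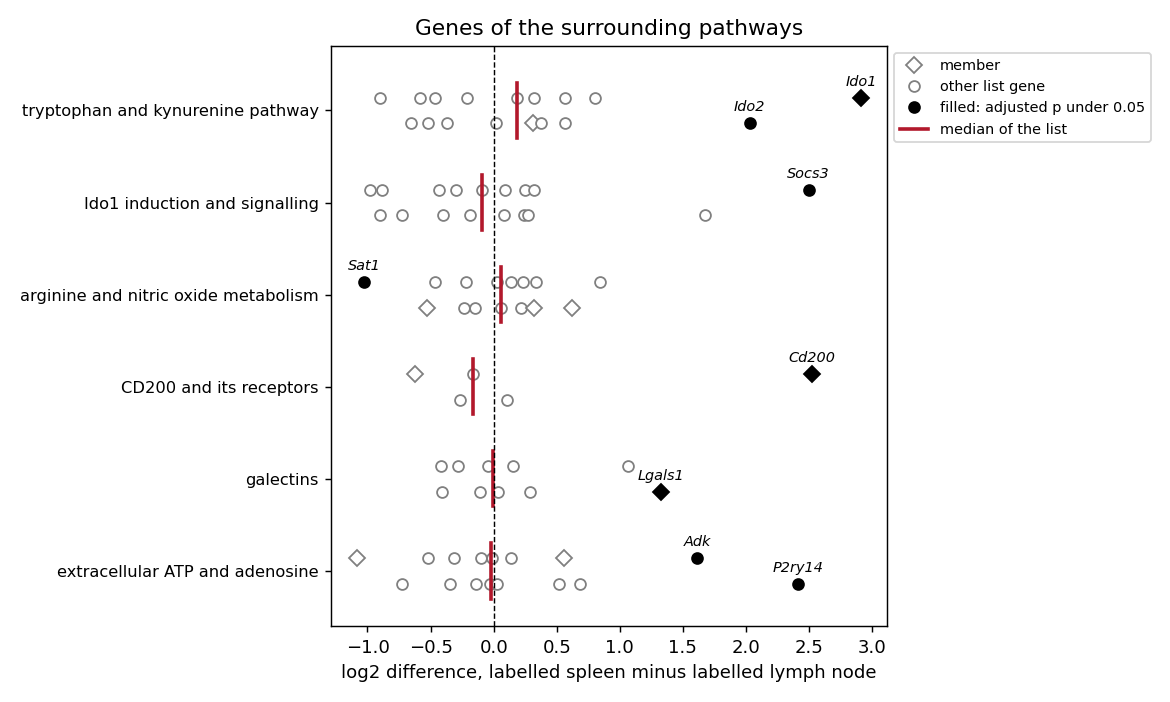
Log2 difference, spleen-labelled arrays minus node-labelled arrays (horizontal axis), of every measured gene in the 6 surrounding gene lists (rows); diamonds are members, circles other genes, filled symbols passed an adjusted p of 0.05, and the red bar is the median of the list. Each list has a median between -0.17 and 0.19, with 1 or 2 filled genes named beside their points.

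The genes whose profile over the 6 arrays was most like that of a called member were found by the root mean square difference of log2 values, each gene centred on its own mean, among 6196 genes above the median level. For Ido1 they were Serpinb9, an inhibitor of granzyme B (0.111), Serpinb6b, a related serpin (0.202), and Sema6d, a semaphorin (0.299). For Cd200 they were Gnb4, a G protein beta subunit (0.247), Fabp5, a fatty acid binding protein (0.260), and Socs2, a suppressor of cytokine signalling (0.277). For Lgals1 they were Golm1 (0.0799), Ssbp2 (0.0923) and Akap2 (0.106). This measure follows mostly the difference between the groups, and with 6 arrays it is a description.

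The choice by profile fixes the direction of these 9 genes, so no test is given for them. Serpinb9 was at 7.65 ± 0.34 in spleen-labelled and 4.76 ± 0.30 in node-labelled arrays (SD, n = 3 each), and Serpinb6b at 9.95 ± 0.29 in spleen-labelled and 7.27 ± 0.39 in node-labelled arrays (SD, n = 3 each). Socs2, at 8.61 ± 0.38 in spleen-labelled and 6.40 ± 0.82 in node-labelled arrays (SD, n = 3 each), had its highest node-labelled array in array 3, at 7.35, as Cd200 had at 4.99. Serpinb9, Sema6d, Akap2 and Ssbp2 were above the median level through the spleen-labelled arrays, with node-labelled means of 4.76, 4.75, 5.14 and 5.27.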

How the data were processed

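The authors deposited 1 linear intensity value per probe set and array. Per the labels' protocols, RNA with an integrity number above 8.4 was extracted with 20 ng of carrier RNA, and 2 ng was amplified. The tools named in the submitters' processing notes are RMA and limma; how they were set is not given in the sources used here. Output of RMA is usually on a log2 scale, and how the deposited linear values were made from it is unknown, as is any floor or further scaling. No detection calls were used.

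Of 22690 probe sets, 20380 had 1 gene symbol in the array annotation (20351 found in RefSeq by Entrez identifier, 0 renamed), 691 several, 1555 none, and 64 were controls. Here log2 of the intensity was taken, and each gene was taken by its brightest probe set, without a filter. Groups came from the sample titles. The arrays were compared in R 4.3.3 with limma 3.58.1 (lmFit, eBayes), with two-sided p adjusted by Benjamini-Hochberg over 12393 genes. The functions were tested on simulated data. Folds are ratios of geometric means.

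Members and lists were chosen with earlier results of these data known. Named are the members; per list, non-members past the threshold, up to 6, or otherwise the 2 with the smallest p; and the 3 genes nearest to each called member. Further list genes (Irf8, Ifngr1, Ifngr2, Map3k14, Cd80, Jak2, Irf1, Dok2, Kmo, Kynu, Lgals3, Lgals9) and all marker genes given with values were named after their values were seen. The alternatives were 16 planned ones and 1 added after seeing the data, without both arrays numbered 3.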

Additional observations from a re-analysis of the deposited data

How the results depend on the processing

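Ido1 and Cd200 kept their direction and passed in every alternative that gave a value. Their differences were 1.68 to 3.12 and 1.90 to 2.80, with adjusted p (limma) up to 0.0294 and 0.0461. The filter at the median level removed Ido1, Il4i1, Arg1, Nos2 and Nt5e, so these have no value there. It kept Cd200 only through the spleen-labelled arrays, so the pass of Cd200 there adds no support. Its mean was 6.98 in the spleen-labelled and 4.46 in the node-labelled arrays, against a median of 5.46 over all genes. With 1 array left out, 2 to 3 members were called higher and 0 lower, 3 to 10 list genes were called (8 with all arrays), and the genes called ranged from 47 to 475 (421 with all arrays), 33 to 296 higher and 14 to 179 lower. A member, Entpd1, was called lower when arrays were weighted or under the filter at the median level (1 against 0); the filter gave 267 genes lower, and array weights gave 764 genes, 425 higher and 339 lower. At an adjusted p of 0.01 there were 63 genes, 44 higher and 19 lower, and 4 list genes. The difference of Nt5e was -0.039 without spleen array 1, with a range up to 0.93 over the arrays left out, and that of Socs3 was -0.52 with its probe sets of suffix _x_at left out. The values do not settle whether the replicate numbers pair the arrays. Same-numbered deviations correlated at 0.022, 0.24 and 0.16 across genes, and differently numbered ones at -0.28 to 0.13. Not every array correlated best with its own number. With the replicate block 519 genes passed, against 421 without it, and the members called were again 3 higher and 0 lower. In the list of genes that induce Ido1 or signal with it, 2 genes were higher with the block, against 1. Under the filter at the median level, which removed Socs3, 0 were higher, as with probe sets of suffix _s_at and _x_at left out. In that list 1 gene was lower with array weights, without spleen array 2, without spleen array 3 or without both arrays numbered 3, against 0. The number of arrays and levels near the bottom of the scale limit Ido1, Il4i1, Arg1, Nos2 and Nt5e.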
